A study of Mus musculus with 12 samples.

Results

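The p53 gene Trp53 and 9 genes of its feedback and survival arms were followed across mouse liver 24 h after exposure to the alkylating mutagen ENU (N-ethyl-N-nitrosourea). The members were taken by gene symbol, and the 10 are Trp53, Mdm2, Mdm4, Ppm1d, Ccng1, Trp53inp1, Zmat3, Phlda3, Sesn1 and Sesn2, out of 49584 genes in the expression table. All 10 reached 1 FPKM (fragments per unit of transcript length and sequencing depth) in at least 3 libraries, and so were among the 12434 genes tested. The 4 groups were ENU-treated Tert-/-, saline-treated Tert-/-, ENU-treated wild-type and saline-treated wild-type mice, with 3 liver RNA libraries in each. Tert encodes the catalytic subunit of telomerase. The knockouts are labelled G1 Tert-/-, and the strain of both genotypes is labelled C57BL/6/129/SvJ. ENU was injected into the peritoneal cavity at 150 µg per g body weight, and the animals are described as age-matched without an age.

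p53 is a transcription factor that is held at a low protein level in unstressed cells, mainly because Mdm2 marks it for degradation. DNA damage stabilises the protein, which then switches on genes that stop the cell cycle, kill the cell or let it recover. Several targets act back on p53, so that the response is limited in time, and others restrain growth signalling through Akt and mTORC1. In liver, these genes are known to respond to genotoxic injury in hepatocytes, which give most of the RNA of the organ.

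The consensus p53 half-site of 10 bases was searched for on both strands of the RefSeq promoter windows (250 bases before to 50 after an annotated start, GRCm38.p6), because p53 binds such sites in its targets. There were 10 windows for 8 of the genes, and Trp53inp1 and Zmat3 had no entry. A half-site was found in 5 of the 10 windows, for Trp53, Mdm2, Ppm1d, Ccng1 and Sesn1. It occurred in 8.36% of the 32851 windows of all genes. The Ccng1 window held 2 adjacent half-sites with at most 1 mismatch in the 20 bases, an arrangement found in 0.0883% of all windows. The stretches below are shown because they hold the matched bases, which are in capitals, 5′ to 3′ on the strand of the gene: Ccng1 at chr11:40755437-40755506 on the minus strand, Mdm2 at chr10:117710910-117710969 on the minus strand, Ppm1d at chr11:85311097-85311156 on the plus strand, Sesn1 at chr10:41887241-41887300 on the plus strand and Trp53 at chr11:69580259-69580318 on the plus strand.
Ccng1: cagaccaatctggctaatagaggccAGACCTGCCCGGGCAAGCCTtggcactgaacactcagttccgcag
Mdm2: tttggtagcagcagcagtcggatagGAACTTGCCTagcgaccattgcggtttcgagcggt
Ppm1d: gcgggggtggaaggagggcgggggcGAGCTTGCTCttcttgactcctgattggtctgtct
Sesn1: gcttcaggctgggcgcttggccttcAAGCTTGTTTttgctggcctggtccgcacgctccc
Trp53: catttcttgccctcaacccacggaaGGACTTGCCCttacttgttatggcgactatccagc
The Ccng1 pair lies 195 to 176 bases upstream of the start, the Mdm2 half-site 186 to 177 bases upstream and the Trp53 half-site 75 to 66 bases upstream. A match describes letters only. Phlda3, Sesn2 and Mdm4 had no half-site in these windows, which says nothing of p53 binding elsewhere, and the sites known to drive Mdm2 lie in an intron.

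The libraries held 30053822 to 43680374 reads in genes. Tert checked the labels, with no overlap between genotypes under either treatment, at 1.62, 1.23 and 1.11 FPKM in Tert-/- ENU against 6.23, 5.69 and 4.70 FPKM in wild-type ENU, and at 0.443, 0.304 and 0.734 FPKM in Tert-/- saline against 3.18, 3.22 and 1.61 FPKM in wild-type saline. The hepatocyte markers, among them Alb, Ttr and Cps1, summed to 61400 to 125000 FPKM over the libraries. Replicate 2 of Tert-/- saline stood apart, with 17486 genes with reads against 19576 to 20310 elsewhere and with 29.53% of its reads in its 20 most abundant genes against 17.36 to 21.69% elsewhere. In that library 8 of the 10 genes were below both other Tert-/- saline libraries, from 0.275 of their mean for Mdm4 to 0.784 for Sesn2. Trp53 and Phlda3 were not, at 1.04 and 1.09 of that mean. The ENU estimates of the 10 genes in Tert-/- and their counts are therefore also given without it, as are the counts of other lists that it moved by over 1.5 times. In wild-type comparisons it entered through the shared estimate of spread.

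After ENU, most of these targets rose in Tert-/- liver and several in wild-type liver, while the p53 transcript itself passed the test in neither. In Tert-/- liver 7 of the 10 genes were higher after ENU and 0 were lower (limma, adjusted p at most 0.05), where 8.13% of all tested genes were higher and 1.45% lower. These were Phlda3, Ccng1, Trp53inp1, Mdm2, Sesn2, Zmat3 and Ppm1d. In wild-type liver 4 of the 10 were higher and 0 were lower, where 0.748% of all tested genes were higher and 0.249% lower, and these were Phlda3, Ccng1, Sesn2 and Zmat3. Averaged over genotypes, the same 7 as in Tert-/- liver were higher, and 0 were lower, against 11.3% and 2.73% of all tested genes. At an unadjusted p under 0.05 there were 9 in Tert-/- (29.4% of all genes in either direction) and 5 in wild type (12.7%), all higher. With voom on recovered reads 6 were higher and 0 lower in Tert-/- (6.27% of all genes in either direction), and 5 were higher and 0 lower in wild type (1.11%). When the 2 groups of a genotype were fitted alone, the spread was not shared between genotypes. Then 3 were higher in Tert-/- and 6 in wild type and 0 were lower in either, with 56 and 1111 genes called in all. The median log2 difference of the 10 was 1.41 in Tert-/- and 0.94 in wild type, beside medians of all tested genes of 0.24 and 0.10. With the columns rescaled by median ratios, the median of all genes became 0.00 in Tert-/- and 0.01 in wild type, and that of the 10 became 1.22 and 0.84.

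Without Tert-/- saline replicate 2, 8 genes were higher and 1 was lower in Tert-/- liver (13.0% and 4.21% of all genes), and 6 were higher in wild-type liver (8.58% of all genes). Averaged over genotypes it was 9 higher and 1 lower (21.3% and 6.45% of all genes). Trp53 and Sesn1 were the additions in Tert-/-, and Mdm2 and Mdm4 in wild type. In Tert-/- the log2 differences without that library were 4.44 for Phlda3, 2.33 for Ccng1, 1.87 for Trp53inp1, 1.55 for Sesn2, 1.30 for Mdm2, 0.96 for Zmat3 and 0.48 for Ppm1d, all called. Without Tert-/- ENU replicate 1, 4 genes were higher in Tert-/- liver (1.81% of all genes). The labels do not say that each library came from its own animal, so the p-values may measure a spread that is partly technical.

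**Figure D1:**
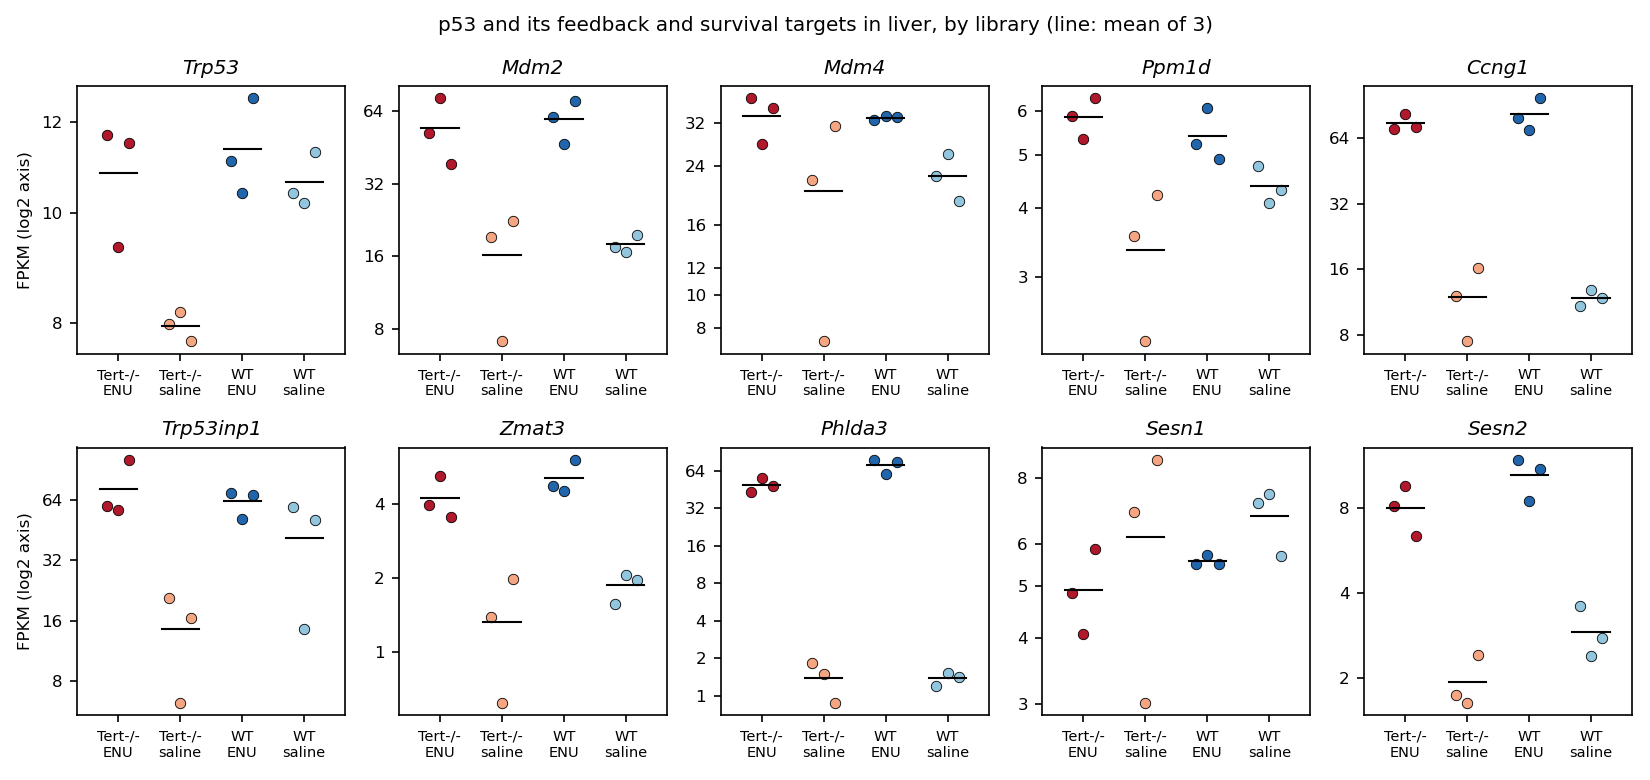
FPKM of each gene in every library (dots; log2 axis, whose range differs by panel), with the mean of each group of 3 as a line. Phlda3, Ccng1, Mdm2, Zmat3 and Sesn2 after ENU lie above all saline libraries of the same genotype, while Trp53 spans only 7.71 to 12.6 FPKM over all 12 libraries.

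Trp53 (chromosome 11, 69580359 to 69591873, plus strand, mm10) encodes p53 and was of middling abundance. It had 11.7, 9.32 and 11.5 FPKM in Tert-/- ENU against 7.98, 8.18 and 7.71 FPKM in Tert-/- saline. In wild-type liver it had 11.1, 10.4 and 12.6 FPKM after ENU against 10.4, 10.2 and 11.3 FPKM in saline. The groups did not overlap in Tert-/- and overlapped in wild type. The log2 difference was 0.40 (SE 0.14, adjusted p = 0.0976 by limma) in Tert-/- and 0.09 (SE 0.14, adjusted p = 0.874) in wild type. Rescaling between libraries (median ratios, quantiles or voom) gave 0.12, 0.09 and 0.17 in Tert-/- (adjusted p 0.603 to 0.779) and -0.01 to -0.03 in wild type. Without Tert-/- saline replicate 2 the Tert-/- difference was 0.41 with an adjusted p of 0.038. This library, at 8.18 FPKM, had the highest Trp53 of its group.

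Mdm2 (chromosome 10, 117688888 to 117710758, minus strand), the ubiquitin ligase that marks p53 for degradation and is itself a p53 target, was higher after ENU. It had 51.7, 72.3 and 38.4 FPKM in Tert-/- ENU against 19.3, 7.1 and 22.3 FPKM in Tert-/- saline. Wild-type libraries had 60.6, 46.6 and 70.2 FPKM after ENU against 17.5, 16.7 and 19.6 FPKM in saline. Every ENU library was above every saline library of either genotype. Ratios of group means were 3.34 in Tert-/- and 3.3 in wild type. The log2 difference was 1.77 (SE 0.35, adjusted p = 0.0134) in Tert-/-, with adjusted p of 0.0562 and 0.0553 without Tert-/- ENU replicate 1 and replicate 2. In wild type the estimate was 1.65 (SE 0.35, adjusted p = 0.0535), just outside the threshold. It was called in 6 of 20 alternatives, with adjusted p of 0.00153 to 0.404 over the 20. Among the 6 were the fits without Tert-/- saline replicate 2 (adjusted p = 0.00153) or replicate 3 (0.0338). These libraries are in neither wild-type group but share the estimate of spread.

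Mdm4 (chromosome 1, 132959484 to 133030561, minus strand), the relative and partner of Mdm2 that masks the activation domain of p53, differed less. It had 37.9, 27.7 and 35.4 FPKM in Tert-/- ENU against 21.8, 7.3 and 31.4 FPKM in Tert-/- saline. In wild type it had 32.7, 33.5 and 33.4 FPKM after ENU against 22.3, 25.9 and 18.9 FPKM in saline. Groups overlapped in Tert-/- and not in wild type, where the 3 ENU values were nearly equal. The difference was not called, at 0.91 on the log2 scale (SE 0.38, adjusted p = 0.136) in Tert-/- and 0.56 (SE 0.38, adjusted p = 0.61) in wild type. Single libraries moved it: in Tert-/- it was 0.34 (adjusted p = 0.216) without Tert-/- saline replicate 2 and 1.32 (adjusted p = 0.0226) without replicate 3, and in wild type the adjusted p was 0.0487 without Tert-/- saline replicate 2. An opposite-strand pseudogene, Gm29257, overlaps Mdm4 but reached only 0.252 FPKM.

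Ppm1d (chromosome 11, 85311244 to 85347066, plus strand), also called Wip1, encodes a phosphatase that reverses damage-induced phosphorylation of p53 and of the kinases above it. It had 5.88, 5.33 and 6.32 FPKM in Tert-/- ENU against 3.56, 2.30 and 4.23 FPKM in Tert-/- saline. Wild-type values were 5.23, 6.06 and 4.90 FPKM after ENU against 4.77, 4.09 and 4.32 FPKM in saline. Neither genotype overlapped, although the wild-type gap was narrow. The log2 difference was 0.67 (SE 0.18, adjusted p = 0.040) in Tert-/- and 0.24 (SE 0.18, adjusted p = 0.665) in wild type. The Tert-/- call was kept in 3 of 20 alternatives (adjusted p 0.0157 to 0.239), and leaving out any one library other than Tert-/- saline replicate 2 or 3 ended it. Averaged over genotypes the difference was 0.46 (adjusted p = 0.0371), a call kept in 4 of 19 alternatives.

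Ccng1 (chromosome 11, 40748552 to 40755311, minus strand) encodes cyclin G1, which brings the phosphatase PP2A to Mdm2. By group mean it was the most abundant of the 10 after ENU in both genotypes. Trp53inp1 was above Ccng1 in Tert-/- ENU replicate 3, and Phlda3 was above it, by a narrow margin, in wild-type ENU replicate 1. Ccng1 had 70.2, 82.4 and 71.7 FPKM in Tert-/- ENU against 12.1, 7.51 and 16.3 FPKM in Tert-/- saline. Wild-type libraries had 78.4, 69.6 and 96.9 FPKM after ENU against 10.9, 12.9 and 11.9 FPKM in saline. The lowest ENU library, at 69.6 FPKM, lay far above the highest saline library, at 16.3 FPKM. Its log2 difference was 2.60 (SE 0.23, adjusted p = 0.000169) in Tert-/- and 2.67 (SE 0.23, adjusted p = 0.000131) in wild type, and was called in all 20 alternatives in both.

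Ratios within a library do not depend on how that library was scaled. Mdm2 to Trp53 was 4.43, 7.76 and 3.33 in Tert-/- ENU against 2.42, 0.868 and 2.89 in Tert-/- saline, and 5.48, 4.46 and 5.55 in wild-type ENU against 1.69, 1.63 and 1.73 in wild-type saline. Mdm2 to Mdm4 was 1.36, 2.61 and 1.08 in Tert-/- ENU against 0.887, 0.973 and 0.710 in Tert-/- saline. In wild type Mdm2 to Mdm4 was 1.85, 1.39 and 2.10 after ENU against 0.784, 0.644 and 1.03 in saline. ENU and saline libraries overlapped in neither ratio in either genotype. Mdm2 FPKM was thus above Mdm4 FPKM in all 6 ENU libraries and below it in 5 of the 6 saline libraries.

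**Figure D2:**
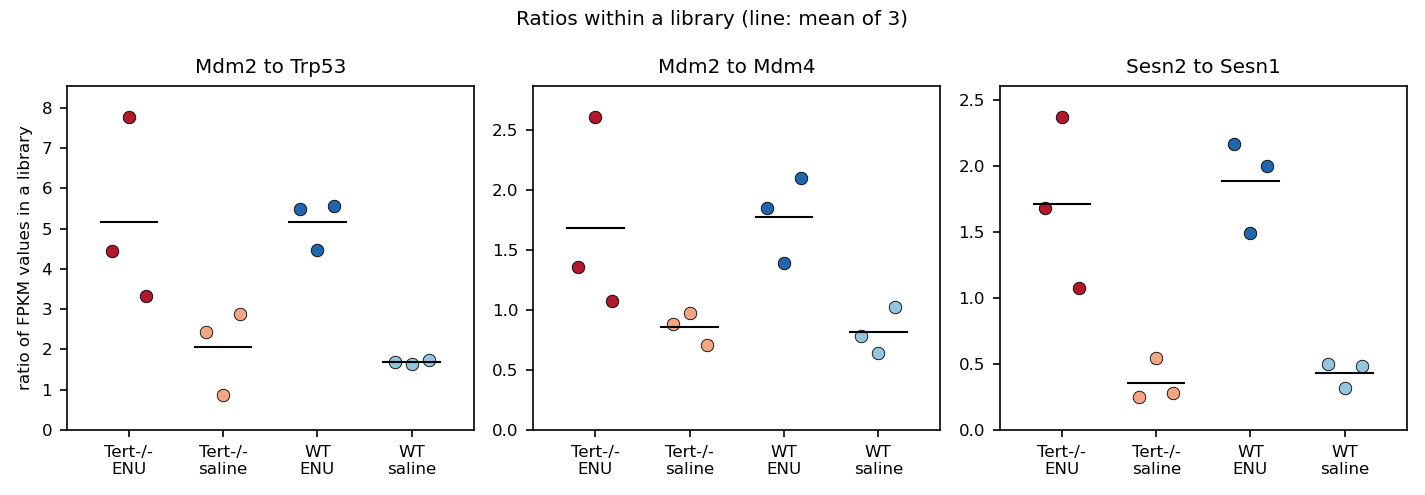
Ratios of FPKM values within each library (dots; linear axes from 0), with the mean of each group of 3 as a line. The Mdm2 to Trp53 ratio averaged 5.18 in Tert-/- ENU against 2.06 in Tert-/- saline, and 5.16 in wild-type ENU against 1.68 in wild-type saline.

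Trp53inp1 (chromosome 4, 11156431 to 11174379, plus strand) encodes a stress-induced partner of p53 that works with the kinase HIPK2 to promote p53 phosphorylation. It was the one gene of the 10 whose levels in saline were wide apart in both genotypes. It had 59.9, 56.9 and 102 FPKM in Tert-/- ENU against 20.8, 6.22 and 16.5 FPKM in Tert-/- saline. In wild type it had 69.9, 51.8 and 67.7 FPKM after ENU against 59.4, 14.6 and 50.8 FPKM in saline. The Tert-/- groups did not overlap, and the wild-type groups did, with 2 of the 3 saline libraries near the ENU level. The log2 difference was 2.35 (SE 0.50, adjusted p = 0.0177) in Tert-/-, with adjusted p of 0.0592 without Tert-/- ENU replicate 1 and 0.0719 without replicate 3. In wild type it was 0.80 (SE 0.50, adjusted p = 0.574), and 0.18 (adjusted p = 0.955) without wild-type saline replicate 2. The difference between the ENU effects was 1.55 on the log2 scale (SE 0.71, adjusted p = 0.732), so the genotypes were not shown to differ in response.

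The state of the circadian clock also differed among the libraries, and it moved with these groups. The log2 difference of Dbp and Arntl, clock genes that peak at opposite times of day in liver, was 4.08, 3.05 and 5.19 in Tert-/- ENU against 5.26, 6.05 and 5.75 in Tert-/- saline. It was -0.52, 4.15 and 4.17 in wild-type ENU against -2.12, 0.14 and -1.81 in wild-type saline. The wild-type saline libraries were thus lowest and the Tert-/- saline libraries highest, apart from wild-type ENU replicate 1. With this value as a covariate, the Trp53inp1 difference after ENU was 2.11 (adjusted p = 0.0619) in Tert-/- and 1.38 (adjusted p = 1) in wild type. In saline, 3 of 11 tested genes listed as peaking near Dbp were higher and 0 lower in Tert-/- than in wild type, with a median of 1.13, and 8 were higher without Tert-/- saline replicate 2. After ENU their median was 0.27 in Tert-/- and 1.57 in wild type, with 0 called by limma or voom in either. Without that library the Tert-/- median was -0.30, and 7 of the 11 were higher in wild type. At an unadjusted p under 0.05, 2 of the 11 were higher in Tert-/- and 7 in wild type. Of the same 11 genes, 3 were higher and 0 lower by limma after ENU averaged over genotypes, Per1, Tef and Per2. Of 6 listed as peaking near Arntl, 0 were higher and 1 was lower, Nfil3. In this average, 5 of the 11 were higher and 2 of the 6 lower at an unadjusted p under 0.05 (31.4% of all genes), and voom called 1 of the 11 higher and 1 of the 6 lower (11.1% of all genes). Clock values did not overlap between genotypes in saline, nor between ENU and saline in Tert-/-, so clock and group cannot be told apart there. The part of the clock in the differences of Trp53inp1 was not tested.

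**Figure D3:**
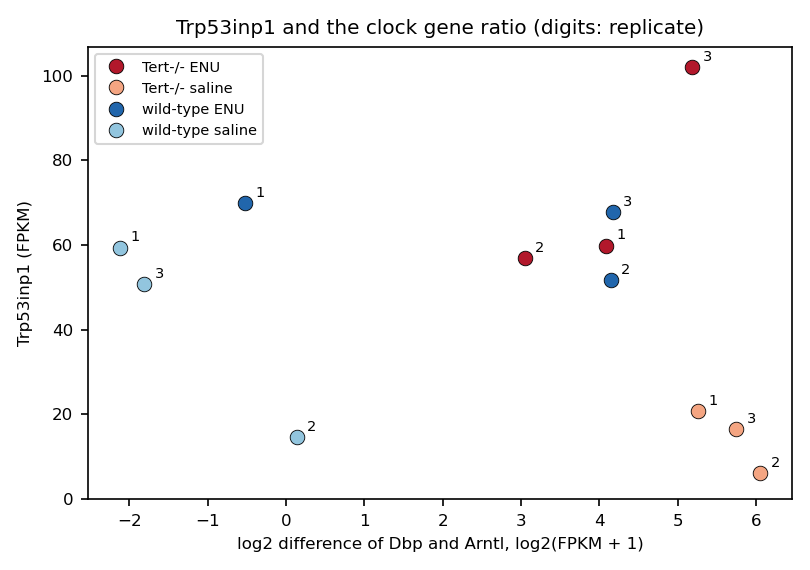
Trp53inp1 (FPKM) against the log2 difference of Dbp and Arntl in each library, with digits for the replicate. The 3 Tert-/- ENU libraries (56.9 to 102 FPKM) lie above the 3 Tert-/- saline libraries (6.22 to 20.8 FPKM) at a clock value of 3.05 to 6.05, whereas wild-type saline spans 14.6 to 59.4 FPKM.

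Phlda3 (chromosome 1, 135766119 to 135769136, plus strand) encodes a small protein with a pleckstrin homology domain that competes with Akt for membrane lipids and so restrains survival signalling. It had the largest difference of the 10. It stood at 43.1, 56.2 and 48.7 FPKM in Tert-/- ENU against 1.84, 1.48 and 0.875 FPKM in Tert-/- saline, and at 78.7, 60.3 and 75.9 FPKM in wild-type ENU against 1.19, 1.52 and 1.42 FPKM in wild-type saline. The saline values rested on 31 to 68 reads per library and the ENU values on 1559 to 3320. The ENU mean was 35.3 times the saline mean in Tert-/- and 52.1 times in wild type. On the log2(FPKM + 1) scale, which understates changes from so low a level, the difference was 4.40 (SE 0.19, adjusted p = 3.9e-07) in Tert-/- and 4.93 (SE 0.19, adjusted p = 1.07e-07) in wild type. Among all 12434 genes these estimates ranked 3 in Tert-/- and 2 in wild type, and both were called in all 20 alternatives.

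Zmat3 (chromosome 3, 32334792 to 32366014, minus strand) encodes a zinc finger protein that binds RNA and affects the stability and splicing of messages, including those of p53 pathway genes. It had 3.94, 5.18 and 3.52 FPKM in Tert-/- ENU against 1.39, 0.620 and 1.97 FPKM in Tert-/- saline. In wild type it had 4.74, 4.50 and 6.04 FPKM after ENU against 1.57, 2.06 and 1.95 FPKM in saline. Groups did not overlap in either genotype, and the ENU mean was 3.18 times the saline mean in Tert-/- and 2.74 times in wild type. The log2 difference was 1.20 (SE 0.22, adjusted p = 0.0102) in Tert-/- and 1.09 (SE 0.22, adjusted p = 0.0457) in wild type. The wild-type call was close to the threshold and was kept in 6 of 20 alternatives, with adjusted p of 0.00311 to 0.627, and leaving out any one library other than Tert-/- saline replicate 2 or 3 ended it.

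Sesn1 and Sesn2 encode sestrins, which inhibit mTORC1 through the GATOR complexes and protect against oxidative stress. With all 12 libraries, Sesn2 was called higher after ENU in both genotypes and Sesn1 was called in neither. Sesn2 (chromosome 4, 132492032 to 132510501, minus strand) had 8.18, 9.61 and 6.35 FPKM in Tert-/- ENU against 1.74, 1.63 and 2.42 FPKM in Tert-/- saline. Wild-type libraries had 11.9, 8.51 and 11 FPKM after ENU against 3.60, 2.39 and 2.76 FPKM in saline. No ENU library overlapped a saline library. The log2 difference was 1.62 (SE 0.20, adjusted p = 0.00162) in Tert-/- and 1.55 (SE 0.20, adjusted p = 0.00238) in wild type, and was called in all 20 alternatives in both.

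Sesn1 (chromosome 10, 41809935 to 41908424, plus strand) had 4.86, 4.06 and 5.87 FPKM in Tert-/- ENU against 6.92, 3.01 and 8.68 FPKM in Tert-/- saline. In wild type it had 5.51, 5.73 and 5.52 FPKM after ENU against 7.19, 7.46 and 5.70 FPKM in saline. Groups overlapped in both genotypes, by a narrow margin in wild type. It was the only member with estimates below 0 in both, at -0.20 on the log2 scale (SE 0.27, adjusted p = 0.641) in Tert-/- and -0.23 (SE 0.27, adjusted p = 0.811) in wild type. Without Tert-/- saline replicate 2, where Sesn1 was lowest, the Tert-/- groups did not overlap and the estimate was -0.57 (adjusted p = 0.029). Without Tert-/- saline replicate 3 it was 0.06. The Sesn2 to Sesn1 ratio, which needs no scaling between libraries, was 1.68, 2.37 and 1.08 in Tert-/- ENU against 0.251, 0.542 and 0.279 in Tert-/- saline. It was 2.17, 1.49 and 2 in wild-type ENU against 0.501, 0.320 and 0.485 in wild-type saline. Sesn2 FPKM thus exceeded Sesn1 FPKM in all 6 ENU libraries and in none of the 6 saline libraries.

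**Figure D4:**
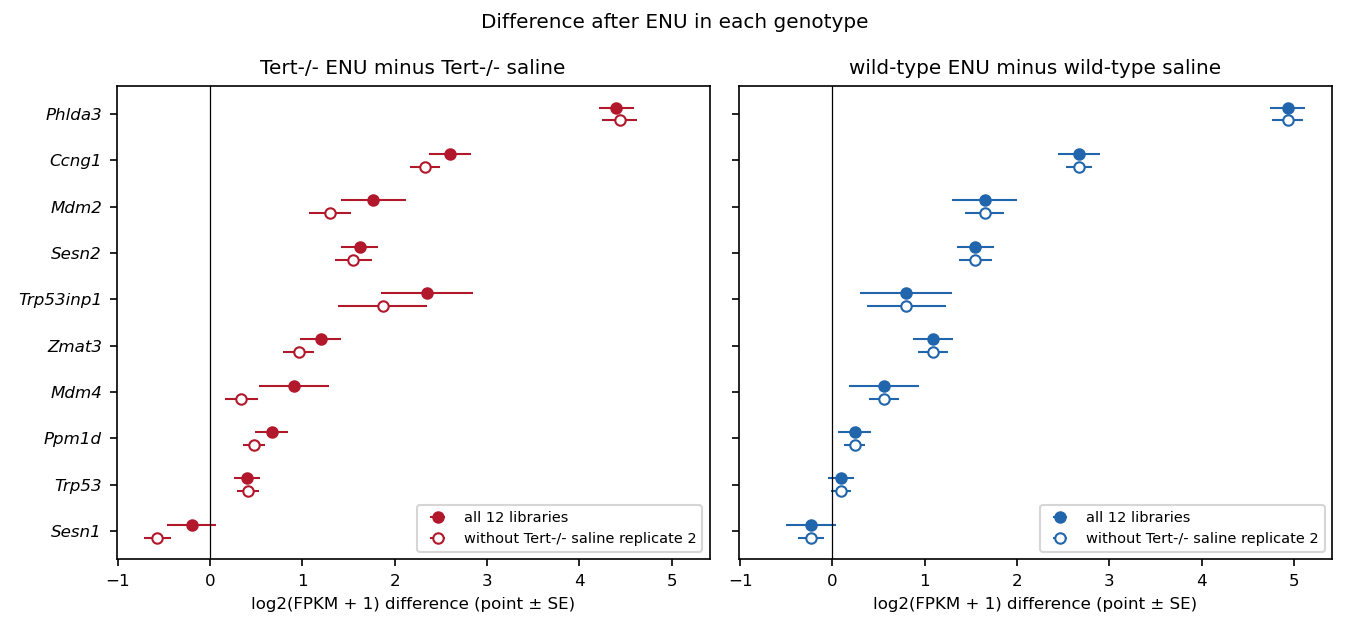
Difference in log2(FPKM + 1) between ENU and saline for each gene, with Tert-/- on the left and wild type on the right (points, estimates; bars, ± SE; filled, all 12 libraries; open, without Tert-/- saline replicate 2). Phlda3 lies at 4.40 in Tert-/- and 4.93 in wild type, and Sesn1 is the one gene left of 0 in both panels.

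Counted by libraries, 8 of the 10 genes were above every saline library after ENU in Tert-/- (24.5% of all tested genes), 7 in wild type (27.0%) and 6 in both (12.6%). The 6 were Mdm2, Ppm1d, Ccng1, Zmat3, Phlda3 and Sesn2. The level order also changed. By FPKM, which is per length, Phlda3 was 9 of 10 in Tert-/- saline and 10 of 10 in wild-type saline, but 4 of 10 in Tert-/- ENU and 2 of 10 in wild-type ENU. In Tert-/- ENU the order was Ccng1 74.8 ± 6.67, Trp53inp1 72.9 ± 25.2, Mdm2 54.1 ± 17.1, Phlda3 49.3 ± 6.60, Mdm4 33.7 ± 5.33, Trp53 10.8 ± 1.31, Sesn2 8.05 ± 1.64, Ppm1d 5.84 ± 0.496, Sesn1 4.93 ± 0.911 and Zmat3 4.21 ± 0.860 FPKM (mean ± SD, n = 3). Libraries of neighbours in this order overlapped except between Phlda3 and Mdm4, between Mdm4 and Trp53 and, by a narrow margin, between Sesn2 (at least 6.35 FPKM) and Ppm1d (at most 6.32 FPKM). In wild-type ENU the order was Ccng1, Phlda3, Trp53inp1, Mdm2, Mdm4, Trp53, Sesn2, Sesn1, Ppm1d and Zmat3, and neighbours overlapped except between Mdm2 and Mdm4, Mdm4 and Trp53, and Sesn2 and Sesn1. Wild-type saline ran from Trp53inp1 at 41.6 ± 23.8 FPKM through Mdm4 at 22.4 ± 3.50 and Mdm2 at 17.9 ± 1.5 to Zmat3 at 1.86 ± 0.255 and Phlda3 at 1.37 ± 0.171 FPKM.

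The genotypes were then compared within each treatment. In saline, 0 of the 10 genes differed between Tert-/- and wild type by limma, where 5.01% of all tested genes did. At an unadjusted p under 0.05 there were 2, Trp53 and Trp53inp1 (23.5% of all genes), and voom on recovered reads called 0 (2.72% of all genes). Trp53 was lower in every Tert-/- saline library (7.71 to 8.18 FPKM) than in any wild-type saline library (10.2 to 11.3 FPKM), and was the only one of the 10 to be so, where 19.5% of all tested genes were. Its log2 difference was -0.38 (SE 0.14, adjusted p = 0.142), and -0.39 (adjusted p = 0.0542) without Tert-/- saline replicate 2. The median of all genes was -0.19 in this contrast, and with rescaled columns the Trp53 estimate was -0.16 by median ratios and -0.15 by quantiles. Trp53inp1 had -1.38 (SE 0.50, adjusted p = 0.126), and -0.33 (adjusted p = 1) with the clock covariate, whose values did not overlap between the genotypes in saline. Mdm2, Mdm4, Ccng1 and Sesn1 changed sign without Tert-/- saline replicate 2, at 0.20, 0.23, 0.22 and 0.18. The basal levels of Phlda3 were near equal, at 1.40 ± 0.488 FPKM in Tert-/- and 1.37 ± 0.171 FPKM in wild type (SD, n = 3).

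After ENU, 0 of the 10 genes and 0 of all 12434 tested genes (0.0%) differed between Tert-/- and wild type by limma, and voom gave 0 as well. At an unadjusted p under 0.05 there were 541 genes (4.35%) and, among the 10, Phlda3 alone. Phlda3 was lower in each Tert-/- ENU library (43.1 to 56.2 FPKM) than in each wild-type ENU library (60.3 to 78.7 FPKM), where 10.4% of all tested genes were. Its log2 difference was -0.53 (SE 0.19, unadjusted p = 0.0161, adjusted p = 1), between -0.65 and -0.44 over 20 alternatives. The difference between the ENU effects was called for 0 of the 10 genes and for 0 genes in all (0.0%) by limma and by voom. At an unadjusted p under 0.05 there were 844 genes (6.79%) and 0 of the 10. The largest estimates among the 10 were those of Trp53inp1, given above, and Phlda3, at -0.52 (SE 0.27, adjusted p = 0.755).

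Other genes were ranked by how close their profile over the 12 libraries came to that of each member, as the root mean square (RMS) difference of centred log2(FPKM + 1) values. Ccng1, with an SD of 1.40 over the libraries, was closest to Aen (RMS 0.15), Eda2r (0.21) and Ddias (0.24). Mdm2 was closest to Exoc4 (0.23), Gm45470 (0.27) and Polk (0.28), and Sesn2 to A930001C03Rik (0.14), Mybl1 (0.24) and Gm13657 (0.25). Zmat3 was closest to Frrs1 (0.16), Pafah2 (0.18) and AI506816 (0.19). For Phlda3, with an SD of 2.45, the nearest were 1700007K13Rik (0.57), 2410089E03Rik (0.63) and RP24-286J21.7 (0.77). An RMS difference grows with the spread of the gene itself, so these values do not rank members of unlike SD by how close their neighbours are. Trp53inp1 was nearest to Epha2 (0.37), Gm17720 (0.47) and Gm25262 (0.47). The genes that varied little had many near profiles, such as Fbxo42 for Ppm1d (0.06), Sars2 for Trp53 (0.07), Cyb5d1 for Mdm4 (0.11) and Irf2 for Sesn1 (0.11).

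Genes of other arms of the p53 programme were counted from lists, beside the shares of all genes given above. Among 9 tested targets of cell cycle arrest and growth, 4 were higher and 0 lower after ENU in Tert-/- and likewise in wild type, with medians of 0.40 in Tert-/- and 1.21 in wild type on the log2 scale. The Tert-/- median was -0.12 without Tert-/- saline replicate 2. In wild type 1 of the 9 was lower at an unadjusted p under 0.05, by voom, and by limma without that library. Cdkn1a, which encodes the cyclin-dependent kinase inhibitor p21, averaged 149 ± 65.7 FPKM in Tert-/- ENU against 1.17 ± 0.254 in Tert-/- saline, and 215 ± 75.3 in wild-type ENU against 18.1 ± 13.9 in wild-type saline (SD, n = 3). Psrc1, a spindle-associated protein, rose by 1.54 in Tert-/- and 2.38 in wild type. Its mean was 0.0563 FPKM in Tert-/- saline against 2.08 in Tert-/- ENU, and 0.0525 in wild-type saline against 4.65 in wild-type ENU. The log2(FPKM + 1) scale understates changes from so low a level. Gtse1 too was low in saline (0.312 FPKM in Tert-/- and 0.212 in wild type). Gtse1, which binds p53 and shuttles it from the nucleus, rose by 1.45 in Tert-/- and 1.74 in wild type, and the kinase gene Plk2 by 2.03 in Tert-/- and 1.99 in wild type. Of 16 tested apoptosis targets, limma called 6 higher in Tert-/- and 5 in wild type, with medians of 0.54 in Tert-/- and 0.65 in wild type. Voom called 5 higher in Tert-/- and 4 in wild type, and at an unadjusted p under 0.05 there were 9 and 10. By each of these rules 0 were lower in either. Those called by limma included the death receptor genes Eda2r (2.63 in Tert-/- and 2.84 in wild type) and Tnfrsf10b (1.19 and 1.41). The nuclease gene Aen (2.51 and 2.47) and Bax (1.70 and 1.49) were also among them. Eda2r and Tnfrsf10b averaged 0.0861 and 0.0839 FPKM in Tert-/- saline against 5.7 and 1.48 in Tert-/- ENU, so this scale understates their change. Without Tert-/- saline replicate 2, 10 of the 16 were higher in wild type. Of 21 tested targets in metabolism and repair, 3 were higher in Tert-/- and 2 in wild type, with Ephx1, an epoxide hydrolase, at 1.66 in Tert-/- and 1.65 in wild type, and without the same library 5 were higher in wild type. Averaged over genotypes, 6 of these 21 were higher, including Polk, a lesion-bypass polymerase, Ercc5, an excision repair nuclease, and Dcxr.

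Upstream regulators were counted in the same way. Of 32 tested genes of the p53 family and of p53 regulators, 3 were higher in Tert-/- after ENU (Ppp1r13l, Trim24 and Hipk2), 0 were higher in wild type and 0 were lower in either. Their medians were 0.37 in Tert-/- and 0.16 in wild type on the log2 scale, beside 0.24 and 0.10 for all genes. At an unadjusted p under 0.05, 10 were higher in Tert-/- and 1 in wild type and 0 were lower, beside 29.4% and 12.7% of all genes in either direction, and voom called 3 higher in Tert-/- and 0 in wild type. When Tert-/- saline replicate 2 was left out, limma called 5 higher in Tert-/- and 1 in wild type, and the Tert-/- median was 0.05. Hipk2, the kinase that acts with Trp53inp1, averaged 17.0 FPKM in Tert-/- ENU against 4.90 in Tert-/- saline (2.01, adjusted p = 0.029), or against 7.01 without replicate 2 of that group (1.32, adjusted p = 0.0187), and 18.4 FPKM in wild-type ENU against 13.1 in wild-type saline (0.47, adjusted p = 0.783). The sestrin pathway (GATOR, AMPK and mTORC1 genes) had 5 of 32 tested genes higher in Tert-/-, 0 in wild type and 0 lower in either, with medians of 0.37 in Tert-/- and 0.12 in wild type. Before adjustment, at p under 0.05, 9 were higher and 0 lower in Tert-/-, and 3 were higher and 1 lower in wild type, shares close to the 29.4% and 12.7% of all genes. With voom 1 was higher and 1 lower in Tert-/- and 0 either way in wild type. Leaving out Tert-/- saline replicate 2, 7 were higher in Tert-/- (median 0.10) and 3 were higher and 1 lower in wild type. Averaged over genotypes the 6 higher included Tsc2 (0.47), a brake on mTORC1, and Mtor itself (0.66).

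Sesn2 is also a known target of ATF4 and NRF2, so their targets were counted too. The part of ATF4 or NRF2 in the rise of Sesn2 was not tested. Of 17 tested ATF4 targets, 0 were higher and 2 lower after ENU in Tert-/-, and 0 either way in wild type, by limma and by voom. In Tert-/- 2 were higher and 3 lower at an unadjusted p under 0.05, and in wild type 2 were higher and 4 lower. Without Tert-/- saline replicate 2, 1 more gene was higher in each, Slc3a2 in Tert-/- and Ddit3 in wild type. Trib3, a pseudokinase gene, fell by 1.23 and Chac1, a glutathione-degrading enzyme, fell by 2.02 in Tert-/-. Averaged over genotypes, limma called 3 of the 17 lower, Trib3, Chac1 and Atf4. It called 1 higher, Gdf15, at 1.61 (adjusted p = 0.0409), while voom called 0 higher and 4 lower. Of 19 tested NRF2 targets, limma called 4 higher in Tert-/- and 1 in wild type. By limma, by voom or at an unadjusted p under 0.05, 0 were lower in either. In wild type 4 were higher without Tert-/- saline replicate 2. Ephx1, counted above among p53 targets, is on this list as well and was the 1 that limma called in wild type with all libraries. Nqo1, a classical NRF2 target, had 0.55 (adjusted p = 0.103) in Tert-/- and 0.75 (adjusted p = 0.136) in wild type by limma. It was called in both without Tert-/- saline replicate 2 (0.65 with adjusted p = 0.0477, and 0.75 with adjusted p = 0.027). Of 25 proliferation genes only 7 were high enough to test, and 0 of these were called in either genotype by limma or by voom, with 0 in Tert-/- and 1, lower, in wild type at an unadjusted p under 0.05. With Tert-/- saline replicate 2 left out, limma called 1 lower in each genotype, Rrm2 in Tert-/- and Mcm3 in wild type.

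Markers of the cells of the liver shifted as well. In bulk tissue, fewer cells of a type and less RNA per cell cannot be told apart. The 20 hepatocyte markers summed to 61400 to 79200 FPKM in Tert-/- ENU against 82000 to 125000 in Tert-/- saline, and to 63700 to 80900 in wild-type ENU against 81700 to 99300 in wild-type saline, and 3 were lower in Tert-/- after ENU, Ass1, Ttr and Serpina1c, with 2 lower in wild type without Tert-/- saline replicate 2. The 7 erythroid markers summed to 105 to 124 FPKM in Tert-/- ENU against 187 to 838 in Tert-/- saline, and to 127 to 143 in wild-type ENU against 213 to 411 in wild-type saline. Of 5 tested erythroid genes 4 were lower in Tert-/-, all globin genes, and 1 in wild type, Hbb-bt, or 3 in wild type without that library. The remaining tested gene had estimates above 0 in both genotypes. It was higher in wild type at an unadjusted p under 0.05, and limma called it higher averaged over genotypes without that library. The 14 Kupffer cell and macrophage markers summed to 232 to 287 FPKM in Tert-/- ENU, 286 to 546 in Tert-/- saline, 255 to 639 in wild-type ENU and 491 to 826 in wild-type saline, with 0 called in either genotype by limma or voom and 2 in Tert-/- and 3 in wild type lower at an unadjusted p under 0.05. The 14 sinusoidal endothelial markers summed to 110 to 124 FPKM in Tert-/- ENU, 121 to 153 in Tert-/- saline, 124 to 186 in wild-type ENU and 193 to 242 in wild-type saline, and limma called 1 lower in Tert-/-, Dnase1l3, and 0 in wild type. Voom called 3 lower in Tert-/- and 2 in wild type, at an unadjusted p under 0.05 there were 3 higher and 3 lower in Tert-/- and 8 lower in wild type, and without Tert-/- saline replicate 2 limma called 2 lower in Tert-/- and 5 in wild type. The 12 stellate cell and fibroblast markers summed to 122 to 157 FPKM in Tert-/- ENU, 143 to 214 in Tert-/- saline, 183 to 286 in wild-type ENU and 241 to 297 in wild-type saline, and limma called Reln lower in wild type. Reln was also called lower in Tert-/- by voom and by limma without Tert-/- saline replicate 2. The 8 cholangiocyte markers summed to 41.0 to 54.5 FPKM in Tert-/- ENU, 35.3 to 55.7 in Tert-/- saline, 47.2 to 54.4 in wild-type ENU and 57.5 to 74.6 in wild-type saline. The 15 T, B and NK cell markers summed to 0.485 to 1.33 FPKM in Tert-/- ENU, 1.56 to 7.32 in Tert-/- saline, 1.74 to 2.38 in wild-type ENU and 6.10 to 9.88 in wild-type saline, with no overlap between ENU and saline in either genotype. These sums are low, and only 1 of the 15, Cd4, was high enough to test. It was not called by limma, at -0.17 (adjusted p = 0.648) in Tert-/- and -0.18 (adjusted p = 0.841) in wild type. The 10 neutrophil markers summed to 1.72 to 5.97 FPKM in Tert-/- ENU, 1.54 to 12.5 in Tert-/- saline, 3.39 to 10.6 in wild-type ENU and 7.15 to 41.1 in wild-type saline. Only 3 of the 10 were high enough to test, and 0 were called in either genotype by limma or voom, with 1 lower in wild type at an unadjusted p under 0.05. No marker was at 0 in every library. The part of these shifts in the differences of the 10 genes was not tested.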

How the data were processed

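Liver RNA was extracted with TRIzol, and 3 µg went into each of 12 NEBNext Ultra libraries, in 4 groups of 3, per the labels' protocols. The submitters' processing notes name HISAT2, HTSeq and mm10. Tool versions, the annotation and the strand setting: not given in the sources used here. A single table of FPKM values was deposited, which per the file headers lists genes by identifier, symbol and position; FPKM divide reads by gene length and by library total. Because FPKM are not counts, limma 3.58.1 (R 4.3.3) was run on log2(FPKM + 1) for the 12434 genes reaching 1 FPKM in 3 or more libraries (group means over all 12 libraries, mean-variance trend, two-sided, Benjamini-Hochberg adjustment over all tested genes, threshold 0.05). Only the limma fit, for ENU in Tert-/-, was tested on simulated data, with the same spread in every group and no outlying library. Library totals and reads were recovered from the FPKM steps with annotated transcript lengths: 26523 of 26524 expressed genes gave whole reads within 0.01. Read depth gave every member at least 31 reads in each library. Same-group libraries all differed beyond counting noise (lowest chi-square per gene 41.8 over 12 pairs) and were each counted once. Alternatives were a pseudocount of 0.1, no filter, median-ratio and quantile rescaling, voom on the recovered reads, each contrast fitted on its 2 groups, a clock covariate, a replicate block and each library left out. Strand being unknown, reads of overlapping antisense genes cannot be told apart. Members and lists were chosen with earlier results of these data known. Named genes were the 10 members, Tert, the 3 closest profiles of each member and, per list, up to 4 called genes with the largest moderated statistic for ENU averaged over genotypes, otherwise the 2 most abundant; Alb, Cps1, Dbp and Arntl are named as markers, and other genes where a count was small. Sequences are from RefSeq, GRCm38.p6, the assembly that mm10 follows. Test results of the cholangiocyte markers are not reported here.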

Additional observations from a re-analysis of the deposited data

How the results depend on the processing

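Leaving out 1 library at a time gave 4 to 9 of the 10 genes called after ENU in Tert-/- liver, 3 to 6 in wild-type liver, 6 to 10 averaged over genotypes, and 0 in the other 3 contrasts. All-gene counts ranged over 266 to 2801, 49 to 1324 and 861 to 3441 for the ENU contrasts and over 4 to 1604 for genotype in saline (1191, 124, 1749 and 623 with all libraries). With the 2 groups fitted alone, 3 of the 10 were called in Tert-/- and 6 in wild type. The gene counts of these fits were 56 in Tert-/-, 1111 in wild type, 1 for genotype in saline and 1 after ENU. The clock covariate gave 4 of the 10 in Tert-/-, and 356, 28, 939 and 0 genes in the order above. Other counts that moved by over 1.5 times were 729 (no filter) and 780 (voom) in Tert-/-, and 403 (median-ratio), 280 (no filter) and 338 (voom) for genotype in saline. The split of calls in Tert-/- was 1011 higher and 180 lower, but 525 and 336 with median-ratio, 638 and 482 with quantile scaling; in wild type it was 93 and 31, but 72 and 53, and 103 and 71. The cause was not tested.

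The signs that reversed were of estimates that had not passed the test. For ENU in wild type, Trp53 became -0.01 (median-ratio), -0.03 (quantile) and -0.02 (voom), and Sesn1 in Tert-/- ranged over -0.57 to 0.06 without 1 library. For the difference between the ENU effects, Mdm2 became -0.38 (clock), -0.05 (median-ratio), -0.07 (quantile) and -0.06 (voom), Zmat3 -0.08 (quantile), Sesn1 -0.11, -0.17 and -0.17 (median-ratio, quantile, voom) and Sesn2 -0.44 (clock), -0.05 (median-ratio) and -0.17 (quantile); without 1 library, Mdm2 ranged over -0.36 to 0.41, Mdm4 -0.22 to 0.76, Ccng1 -0.34 to 0.17, Zmat3 -0.13 to 0.31, Sesn1 -0.34 to 0.29 and Sesn2 -0.06 to 0.21. For genotype in saline, Mdm2 became 0.37, Phlda3 0.26 and Sesn2 0.23 (clock), Ccng1 0.16, 0.18 and 0.18 and Phlda3 0.15, 0.30 and 0.15 (median-ratio, quantile, voom), and Sesn1 0.06 (quantile) and 0.02 (voom). Without 1 library, in saline, Mdm2 ranged over -0.56 to 0.20, Mdm4 -0.76 to 0.23, Ccng1 -0.29 to 0.22, Phlda3 -0.14 to 0.16 and Sesn1 -0.46 to 0.18. For genotype after ENU, Mdm4 became -0.02 (clock), and without 1 library Trp53 ranged over -0.12 to 0.03, Mdm2 -0.38 to 0.07, Mdm4 -0.08 to 0.14, Ccng1 -0.22 to 0.01 and Trp53inp1 -0.10 to 0.32.

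Deviations of same-numbered libraries from their group means correlated at -0.16 to 0.21. With 3 libraries per group, these values cannot settle whether replicate numbers mark a pairing. With the replicate block, 6 of the 10 were called in Tert-/-, 3 in wild type and 6 averaged, with 954, 108 and 1556 genes in all and 344 for genotype in saline. Depth gave every gene of the 10 at least 31 reads per library, and same-group libraries differed beyond counting noise.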
